A study of Mus musculus with 380 samples.

Results

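Genes of plasmacytoid dendritic cells, macrophages and other antigen-presenting cells were followed in 380 Smart-seq2 libraries of tumour T cells, from 4 plates of 94 single cells and 1 population well each. The 10 genes, of 23420 in the expression matrix, were Siglech, Ly6d, Cox6a2, Spib and Ccr9 (plasmacytoid dendritic cell genes), Lyz2 (a lysozyme of macrophages and monocytes) and Cd74, H2-Aa, H2-Ab1 and H2-Eb1 (MHC class II genes). They were chosen because earlier results of these data showed them in the wells, so their levels in wells and cells are given as a description, without a test. A population well is a library made from many sorted cells, and the labels do not give how many. The T cells came from B16F10 melanomas, a transplantable mouse tumour line, grown in C57BL/6 mice.

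The 4 plates were CD8 cells labelled Il27ra KO, CD8 cells labelled wild type (WT), CD4 cells labelled Il27ra KO and CD4 cells labelled WT. Il27ra encodes a chain of the interleukin-27 receptor. No label gave the age of the mice, how the allele was made or a treatment other than the tumour, and the titles carried 1 code for each genotype (KO4 and WT4). The WT CD4 titles carried p2 where the other 3 plates carried p1, which no label explains, and the stated protocol mentions CD8+ cells only. Il27ra remained detectable on the KO-labelled plates, at 85.3 FPKM in the KO-labelled CD8 well against 157.02 in the WT CD8 well, and at 72.7 FPKM in the KO-labelled CD4 well against 243.4 in the WT CD4 well. The deposited values cannot show which exons the reads covered, so the groups are called KO-labelled and every direction below is between labels. Each group was 1 plate. Genotype, animal and plate cannot be told apart, and no p-value or standard error was computed.

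Levels are in FPKM, a measure that divides the fragments of a gene by its transcript length and by the size of the library, which allows levels of different genes to be set side by side. A gene was called detected above FPKM 1, and a cell was kept when at least 1000 genes were detected. This left 80 KO-labelled CD8, 72 WT CD8, 73 KO-labelled CD4 and 79 WT CD4 cells, and left out 72. The median number of genes detected in a kept cell was 2508, 3168, 2218 and 2045 on these plates, and the wells held 10450 to 10946 genes. Depth was read off the step that a single read makes in low values, and medians lay between 509744 and 526576 reads per kept cell. The wells came to about 665934 (KO-labelled CD8), 432511 (WT CD8), 484529 (KO-labelled CD4) and 787426 reads (WT CD4). The lineage labels matched the coreceptors: 84.9% and 89.9% of the cells on the KO-labelled and WT CD4 plates had Cd4, and 90% and 84.7% on the KO-labelled and WT CD8 plates had Cd8a. On each plate, between 95.9% and 100% of kept cells had a CD3 chain.

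Plasmacytoid dendritic cells are the immune system's professional producers of type I interferon. In the mouse they are recognised by the surface lectin SiglecH, and their identity depends on the transcription factor E2-2, encoded by Tcf4, together with SpiB and Irf8. MHC class II molecules present peptides to CD4 T cells. An alpha chain and its beta chain, such as H2-Aa and H2-Ab1, assemble on the invariant chain, encoded by Cd74, which guides them to the compartment where peptide is loaded. H2-Eb1 encodes the beta chain of another pair and is no partner of H2-Aa. Mouse T cells are generally held to make little or no class II protein, whereas dendritic cells, macrophages and B cells make it in quantity. Class II genes are switched on together through X, X2 and Y boxes in their promoters, which are bound by RFX, CREB and NF-Y factors that recruit the transactivator CIITA.

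The position and promoter letters of the genes played no part in choosing them. The 3 class II chains lie close together. H2-Ab1 lies on chromosome 17 at 34257689 to 34269419 (plus strand), H2-Aa at 34282744 to 34287823 (minus strand) and H2-Eb1 at 34305867 to 34316674 (plus strand), all within the MHC, in GRCm38. The invariant chain gene lies on another chromosome. Of the remaining members, Siglech, Spib and Cox6a2 are on chromosome 7, Ccr9 on chromosome 9, Lyz2 on chromosome 10 and Ly6d on chromosome 15. RefSeq promoter sequences (GRCm38.p6, 250 bases before to 50 after the start) were at hand for 6 of the 10 members. The 2 shown, of the class II chains H2-Aa and H2-Eb1, were the only ones of these with a match to the Y, X or X2 letters searched. Capitals mark the Y box (CTGATTGG) in both, an X2 box (TGACGTCA) in H2-Aa and an X box (AACNGATG) in H2-Eb1.
H2-Aa promoter, chr17:34287774-34288073, minus strand: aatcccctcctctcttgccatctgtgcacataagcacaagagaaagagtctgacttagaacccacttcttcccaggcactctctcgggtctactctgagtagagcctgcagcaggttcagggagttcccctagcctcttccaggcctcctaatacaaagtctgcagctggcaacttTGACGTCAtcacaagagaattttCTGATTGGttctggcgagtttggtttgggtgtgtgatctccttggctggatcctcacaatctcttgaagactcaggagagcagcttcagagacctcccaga
H2-Eb1 promoter, chr17:34305617-34305916, plus strand: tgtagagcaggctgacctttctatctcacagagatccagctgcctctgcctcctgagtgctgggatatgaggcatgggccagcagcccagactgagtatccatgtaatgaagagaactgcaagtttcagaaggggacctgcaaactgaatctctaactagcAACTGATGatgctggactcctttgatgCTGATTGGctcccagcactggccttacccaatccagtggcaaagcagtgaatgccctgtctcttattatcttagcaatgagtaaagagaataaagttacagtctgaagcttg
The Y box began 51 bases before the start in H2-Aa, with X2 at 74 bases, and 62 bases before it in H2-Eb1, with X at 89 bases. Both strands of 32851 mouse promoters were searched, and no 2 of the motif matches printed overlap. The Y letters occurred in 4.10% of these promoters, the X letters in 2.32%, X2 in 1.79%, and Y together with X or X2 in 0.177%. Such a match is a run of letters and does not show binding.

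All 10 genes were above FPKM 1 in both KO-labelled wells, against 6 in the WT CD8 well and 5 in the WT CD4 well. Of all 23420 genes, 10801 were above FPKM 1 in the KO-labelled CD8 well, 10946 in WT CD8, 10853 in KO-labelled CD4 and 10450 in WT CD4. The members were chosen on these wells, so their counts are a description only. The plasmacytoid genes made the difference between these member counts. All 5 were detected in each KO-labelled well, against 1 in the WT CD8 well (Spib) and 0 in the WT CD4 well. Siglech, the surface lectin, had 59.5 FPKM in the KO-labelled CD8 well and 0 in the WT CD8 well, and 306.2 FPKM in the KO-labelled CD4 well against 0 in the WT CD4 well. It ranked above 67.9% of the genes detected in the KO-labelled CD8 well and above 92.3% in the KO-labelled CD4 well. Ccr9, a chemokine receptor that homes cells to the gut and thymus, had 37.1 FPKM in the KO-labelled CD8 well against 0.53 in the WT CD8 well, and 92.2 FPKM against 0 in the CD4 wells, KO-labelled before WT. Ly6d, a small GPI-anchored surface protein of early B lineage and plasmacytoid cells, had 30.4 FPKM in the KO-labelled CD8 well against 0 in the WT CD8 well, and 35.7 FPKM in the KO-labelled CD4 well against 0 in the WT CD4 well. Ccr9 ranked above 57.3% and 76.1% of the genes detected in the KO-labelled CD8 and CD4 wells, and Ly6d above 52.4% and 56.8%. Each of these 3 genes thus stood in the middle or upper range of both KO-labelled wells, and at or near 0 in both WT wells.

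Cox6a2, a subunit of cytochrome c oxidase best known from heart and skeletal muscle, had 18.2 FPKM in the KO-labelled CD8 well against 0 in the WT CD8 well, and 74.9 FPKM in the KO-labelled CD4 well against 0 in the WT CD4 well. Spib, the transcription factor SpiB, had 48.8 FPKM in the KO-labelled CD8 well against 2.48 in the WT CD8 well, and 34.8 FPKM in the KO-labelled CD4 well against 0 in the WT CD4 well. The low WT CD8 values of Spib and Ccr9 came to an estimated 0.91 and 0.69 reads, below the floor of 3 estimated reads per well used for ratios. Among single cells, low values of Spib and Ccr9 had medians of 0.30 and 0.70 estimated reads. The estimate thus likely counts a read of these genes as less than 1, and 0.91 may stand for more than 1 read of Spib. The floors and ratios share that scale. Against that floor the KO-labelled CD8 well was at least 15.4-fold higher than the WT CD8 well for Siglech, at least 16.1-fold for Ccr9, at least 6.00-fold for Spib, at least 3.26-fold for Ly6d and at least 1.79-fold for Cox6a2. The KO-labelled CD4 well was at least 144.2-fold higher than the WT CD4 well for Siglech, at least 72.7-fold for Ccr9, at least 13.4-fold for Cox6a2, at least 7.80-fold for Spib and at least 6.97-fold for Ly6d. Cox6a2 in the KO-labelled CD8 well rested on an estimated 8.25 reads, the smallest number behind a plasmacytoid gene in a KO-labelled well. In these libraries of many cells, fewer cells of a type and less RNA per cell cannot be told apart.

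Lyz2 and the class II genes took a different order among the wells, with the WT CD8 well above the KO-labelled CD8 well and the WT CD4 well far below the other 3. Lyz2, the lysozyme of macrophages and monocytes, had 723.9 FPKM in the KO-labelled CD8 well against 1655 in the WT CD8 well, and 2959 in the KO-labelled CD4 well against 26.4 in the WT CD4 well. Cd74, the invariant chain, had 698.6 FPKM in the KO-labelled CD8 well against 1428 in the WT CD8 well, and 1150 in the KO-labelled CD4 well against 139.5 in the WT CD4 well. The class II alpha chain H2-Aa had 1060 FPKM in the KO-labelled CD8 well against 2770 in the WT CD8 well, and 1942 in the KO-labelled CD4 well against 10.7 in the WT CD4 well. For all of these, 3 wells lay in the top few percent of detected genes and the WT CD4 well did not, although its Cd74 still ranked above 82.9% of the genes detected there.

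The beta chain H2-Ab1 had 1121 FPKM in the KO-labelled CD8 well against 3817 in the WT CD8 well, and 2446 in the KO-labelled CD4 well against 38.3 in the WT CD4 well. The second beta chain, H2-Eb1, had 480.2 FPKM in the KO-labelled CD8 well against 1210 in the WT CD8 well, and 797.0 in the KO-labelled CD4 well against 14.4 in the WT CD4 well. The KO-labelled CD8 well thus held 0.294 to 0.489 times the WT CD8 level of these 5 genes, while the KO-labelled CD4 well held 8.25 (Cd74) to 182 times (H2-Aa) the WT CD4 level. Lyz1, a neighbour of Lyz2 and nearly identical to it, stood at 7.74% to 11.4% of Lyz2 in the wells, and reads may be divided between the copies, so the Lyz2 values are uncertain to that extent.

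A 2-fold difference between single wells was common. Of 11875 genes detected in a CD8 well, 18.6% were at least 2-fold higher in the KO-labelled well on the log2(FPKM + 1) scale and 16.8% at least 2-fold lower. Of 11746 genes in the CD4 wells, 19.9% were higher in the KO-labelled well and 16.4% lower. The 5 plasmacytoid members were higher and the other 5 lower in the KO-labelled CD8 well, and all 10 were higher in the KO-labelled CD4 well. The members were chosen on these wells, so nothing is read from these counts. The median log2 difference of the members, KO-labelled minus WT, was 1.40 in CD8 wells and 6.10 in CD4 wells, against 0.04 and 0.01 over all genes. With the 5 plasmacytoid genes set at their bounds the medians were -0.10 and 5.89, so the sign of the CD8 median depends on how genes at the floor are treated.

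**Figure D1:**
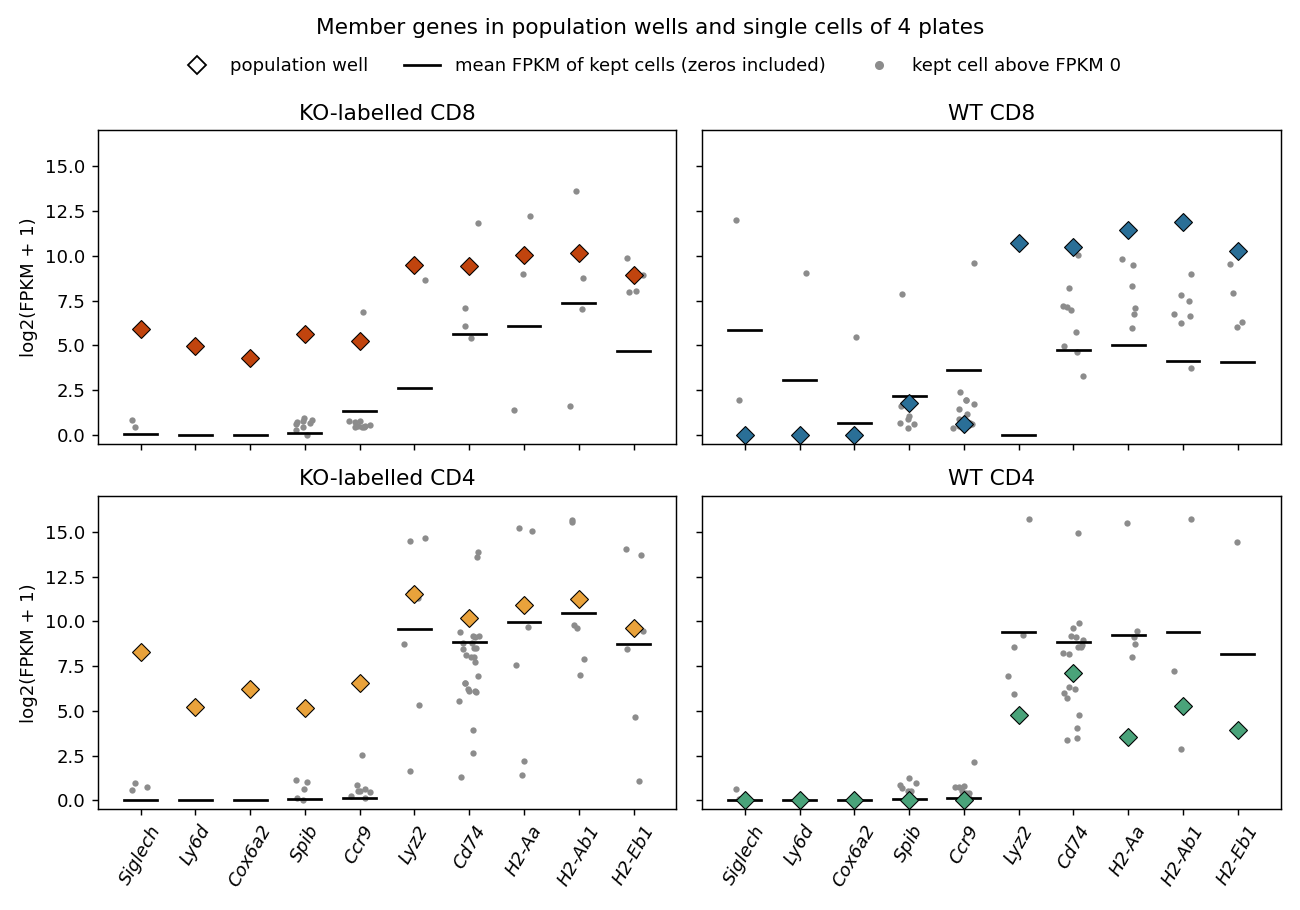
Level of the 10 genes, as log2(FPKM + 1) on the vertical axis, in the population well (diamond), as the mean over kept cells with zeros included (line) and in each kept cell above FPKM 0 (dots), with 1 panel for each plate. In the KO-labelled wells the 5 plasmacytoid genes stood at 18.2 to 306.2 FPKM where almost no cell of the plate had them, and in the WT CD4 panel the lines of Lyz2 and the class II genes lay above the diamonds, which for all of these but H2-Aa rested on 1 cell, S325.

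The single cells of the same plates almost never carried the plasmacytoid genes. Siglech was found in none of the 80 KO-labelled CD8 cells (0 of 80 allows at most 3.75%), in 2 of 72 WT CD8 cells (2.78%, exact Clopper-Pearson 95% interval 0.338 to 9.68), in 0 of 73 KO-labelled CD4 cells (up to 4.11%) and in 0 of 79 WT CD4 cells (up to 3.80%). Intervals and limits of this kind cover counting error only. Ly6d and Cox6a2 were each detected in 1 WT CD8 cell and in no other kept cell. Among kept cells these 3 genes were thus found on the WT CD8 plate only, whereas among wells they were found on both KO-labelled plates. Cells below the filter did hold Siglech on other plates, at 1.21 and 1.64 FPKM in 2 KO-labelled CD8 cells, at 1.54 FPKM in 1 WT CD8 cell and at 1.19 FPKM in 1 KO-labelled CD4 cell.

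Spib and Ccr9 were found in more cells, mostly at levels near a single read. Spib was detected in 0 of 80 KO-labelled CD8, 5 of 72 WT CD8, 2 of 73 KO-labelled CD4 and 1 of 79 WT CD4 cells. Ccr9 was detected in 1, 7, 1 and 1 cells of the same plates. Leaving out the library titled S4, in which several plasmacytoid genes met, 28 cells had Spib above 0 with a median of 0.30 estimated reads and a highest value of 2.69 FPKM. Ccr9 was above 0 in 42 such cells, with a median of 0.70 estimated reads, and only 1 of them exceeded FPKM 10, a KO-labelled CD8 cell with 113.5 FPKM (an estimated 100.8 reads). Siglech was above 0 in 8 such cells and reached 2.78 FPKM. Values of this size do not give an order between plates. The medians below 1 whole read for Spib and Ccr9 probably mean that the estimate runs low for these genes.

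The class II genes and Lyz2 were found in a small share of cells on every plate, with the exception of Lyz2 on the WT CD8 plate. There Lyz2 was detected in 0 of 72 cells (up to 4.99%), although the WT CD8 well had 1655 FPKM. Lyz2 was found in 1 of 80 cells of the KO-labelled CD8 plate (1.25%, 0.0316 to 6.77), in 7 of 73 KO-labelled CD4 cells (9.59%, 3.94 to 18.8) and in 5 of 79 WT CD4 cells (6.33%, 2.09 to 14.2). H2-Aa was detected in 3, 6, 6 and 5 cells of the KO-labelled CD8, WT CD8, KO-labelled CD4 and WT CD4 plates, H2-Ab1 in 4, 7, 7 and 3, and H2-Eb1 in 4, 4, 6 and 1. The intervals of all 4 plates overlapped for each of the 3 chains. The share of Cd74 was largest on the CD4 plates, although the intervals of the WT CD8 and WT CD4 plates overlapped. It was 5% on the KO-labelled CD8 plate (1.38 to 12.3), 12.5% on the WT CD8 plate (5.88 to 22.4), 35.6% on the KO-labelled CD4 plate (24.7 to 47.7) and 24.1% on the WT CD4 plate (15.1 to 34.98).

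**Figure D2:**
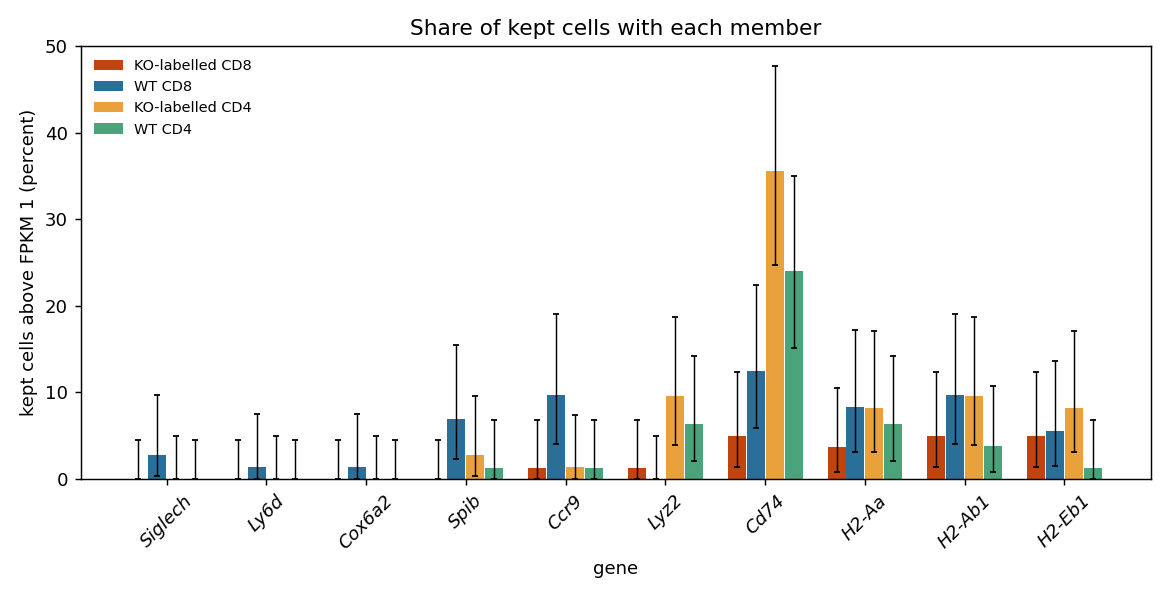
Percent of kept cells with each gene above FPKM 1 (vertical axis) by plate, with exact Clopper-Pearson 95% intervals as error bars. Cd74 reached 35.6% in KO-labelled CD4 cells and 24.1% in WT CD4 cells, while the other 9 genes stayed at 9.72% or below on every plate.

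A few cells held most of the signal. In WT CD8 cells library S4 supplied 99.9% of the summed Siglech, 97.6% of Ccr9 and 95.8% of Spib. In WT CD4 cells a single cell, library S325, supplied 97.9% of the summed Lyz2, 85.2% of Cd74, 95.95% of H2-Aa, 99.7% of H2-Ab1 and all of H2-Eb1. Its removal lowered the mean of H2-Aa on that plate to 24.9 FPKM, against 608.3 FPKM with it, and that of Cd74 to 70.1, against 467.7 FPKM. The WT CD4 well, at 10.7 FPKM for H2-Aa and 139.5 for Cd74, lay below both plate means of H2-Aa and between the 2 means of Cd74. In KO-labelled CD8 cells library S256 supplied 93.8% of the summed Cd74 and 95.7% of H2-Ab1. In KO-labelled CD4 cells library S119 supplied 46.3% of the summed Lyz2, 44.8% of Cd74, 52.5% of H2-Aa and 48.9% of H2-Ab1. Library S185 supplied 54.1% of the summed H2-Eb1 on that plate.

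Set against the mean of the kept cells, the wells ran in different directions. The sum of the 4 class II genes was 3360 FPKM in the KO-labelled CD8 well against a cell mean of 301.5, 9225 against 88.8 for WT CD8, 6335 against 3317 for KO-labelled CD4 and 202.9 against 2040 for WT CD4. The WT CD4 direction rested on S325, without which the cell mean was 97.1 FPKM, below the well. Without that cell the median difference of the members was 0, the value of Ly6d and Cox6a2, which were at 0 in both well and cells. Lyz2, Cd74, H2-Ab1 and H2-Eb1 were then higher in the WT CD4 well than in its cells, while H2-Aa stayed lower. On the other plates, leaving out the cell with the most class II RNA gave means of 29.2 (KO-labelled CD8), 48.9 (WT CD8) and 1729 FPKM (KO-labelled CD4), each further below its well. The WT CD8 well, which exceeded each of its 72 kept cells in this sum, was the highest of the wells, although the mean over its cells was the lowest. The median over the 10 members of the log2 difference, well minus cells, was 4.26, 2.69, 3.54 and -0.93 on the KO-labelled CD8, WT CD8, KO-labelled CD4 and WT CD4 plates, against 0.85, 0.70, 0.89 and 0.91 over all genes detected. No member lay near the WT CD8 median. There the 5 plasmacytoid genes ran from -5.84 to -0.35, lower in the well, and the other 5 from 5.73 to 10.7. Without library S4, 2 members were lower in the WT CD8 well. At least 2-fold higher in the well than in the cell mean were 10, 5, 7 and 0 of the 10 members, where 42.1%, 32.4%, 45% and 46.1% of all genes were. Above FPKM 1 in the well yet in under 5% of the cells were 7 of 10, 1 of 6, 5 of 10 and 2 of 5 members, where 17.9%, 14.2%, 20.8% and 18.9% of all genes were. This contrast chose the members, and nothing is read from their counts. Closest to that 5% share were Cd74, H2-Ab1 and H2-Eb1 in KO-labelled CD8 cells, each at 5%, then H2-Eb1 in WT CD8 cells at 5.56%. Just below the 5% share lay H2-Aa in KO-labelled CD8 cells at 3.75% and H2-Ab1 in WT CD4 cells at 3.80%.

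Between labels the cells were compared by a mean of log2 values, in which cells at 0 weigh heavily, unlike a pooled well. The mean log2(FPKM + 1) over kept cells, KO-labelled minus WT, had a median over the members of -0.17 in CD8 and 0.04 in CD4, against -0.12 and 0.03 over all genes. None of the 10 members differed by 1 or more in either lineage, where 1.42% of genes were at least 1 higher and 9.02% at least 1 lower in KO-labelled CD8 cells, and 3.13% and 0.537% in KO-labelled CD4 cells. Each member but Cd74 was detected in at most 9.72% of a plate's kept cells, so such a mean had little room to move by 1. Nothing is read from this count. The widest differences were 0.88 for Cd74, 0.73 for H2-Ab1 and 0.52 for H2-Eb1, all in CD4 cells, and then -0.43 for Cd74 in CD8 cells. H2-Aa had 7.38 between the CD4 wells and 0.06 between the CD4 cells, on unlike measures. As a mean of FPKM, the class II sum was 3317 in KO-labelled and 2040 in WT CD4 cells, the direction of the wells. Without the top class II cell of each plate it was 1729 and 97.1. The 1729 still held library S185 (111663 FPKM), nearly level with S119 (117687 FPKM), the top cell of the KO-labelled CD4 plate. A mean without both cells was not computed. In CD8 the class II sum was 301.5 in KO-labelled and 88.8 in WT cells, opposite to the wells. Without the top cells it was 29.2 and 48.9, in the direction of the wells.

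Most kept cells had none of the genes. None of the 10 was above FPKM 1 in 70.7% of kept cells, while 65 cells had 1, 10 had 2, 3 had 3, 3 had 4, 7 had 5 and 1 had 8. At least 3 of the 4 class II genes met in 13 cells (4.28%, 2.30 to 7.20), of which 2 were KO-labelled CD8, 5 WT CD8, 4 KO-labelled CD4 and 2 WT CD4 cells, and all 4 met in 10 of them. Only library S4 had at least 3 of the 5 plasmacytoid genes, and it was also 1 of the 13. The summed class II level of these 13 cells ran between 283.9 and 153580 FPKM with a median of 2365. Of the other kept cells, 59 had some class II signal, up to 1039 FPKM. The 13 cells had a median of 3523 genes, against 2310 in the others, and a median CD3 sum (Cd3d, Cd3e and Cd3g) of 686.9 FPKM, against 1850. No doublet caller was run, and the part of wells holding more than 1 cell in these values was not tested.

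**Figure D3:**
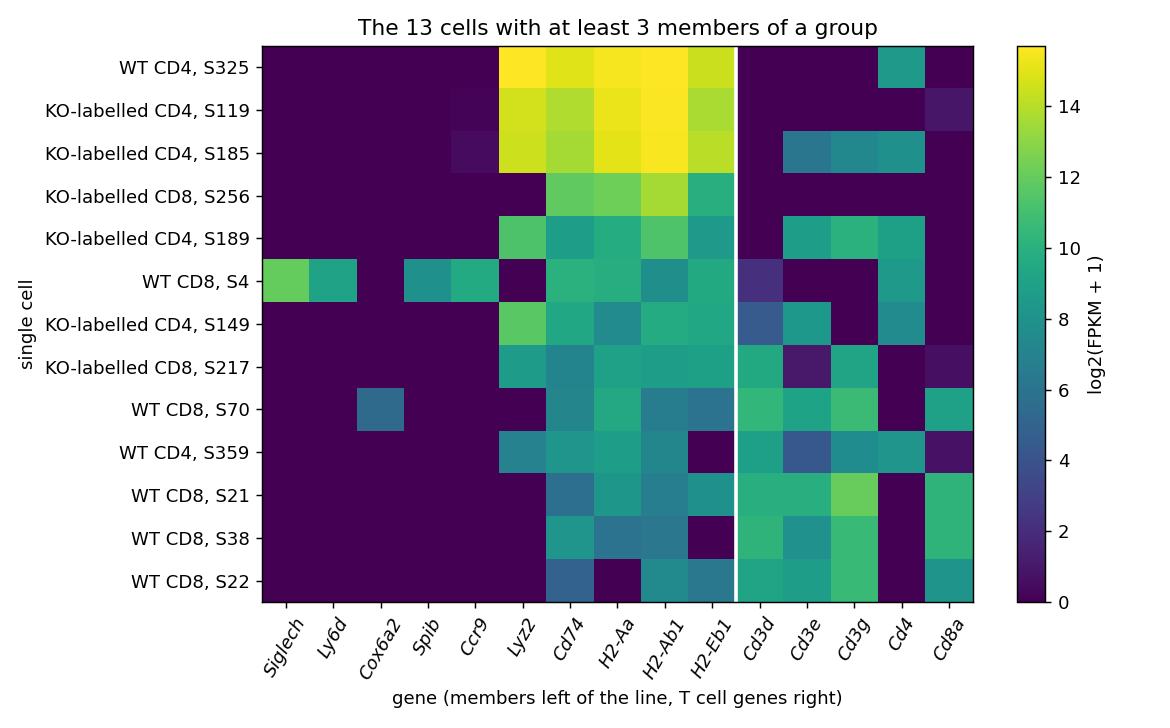
Level of the 10 genes and of CD3 chains and coreceptors, as log2(FPKM + 1) in colour, in the 13 cells with at least 3 class II genes, sorted by their class II sum (rows). Library S4 alone combined several plasmacytoid genes with class II genes, S70 had Cox6a2 with them, and the lower rows combined class II genes with CD3 chains.

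The 3 cells with the most class II RNA, 1 WT CD4 and 2 KO-labelled CD4 cells, carried Lyz2 and a broad set of macrophage genes. Library S325 (WT CD4) had 153580 FPKM of class II RNA, 53363 FPKM of Lyz2 and 21 of 23 macrophage and monocyte genes, with no CD3 chain detected. Its other levels included 71942 FPKM of Apoe, the lipid carrier, 17060 of the complement gene C1qb and 4445 of Csf1r, the receptor for macrophage colony-stimulating factor. Library S119 (KO-labelled CD4) had 117687 FPKM of class II RNA, 25448 FPKM of Lyz2 and 20 of the 23 genes, again with no CD3 chain. Library S185 (KO-labelled CD4) had 111663 FPKM of class II RNA, 23233 FPKM of Lyz2 and 17 of the 23 genes, together with 231.4 FPKM of CD3 chains and 233.8 FPKM of Cd4. Cells outside the 13 had a median of 2 or 3 of the 23 genes on each plate. Cd4 itself, 342.5 FPKM in library S325, was present in that library without a CD3 chain.

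Library S256, a KO-labelled CD8 cell, had class II genes without Lyz2. It held 21815 FPKM of class II RNA, no CD3 chain, no Cd8a and 8 of 18 genes of conventional dendritic cells, beside 9 of the 23 macrophage and 15 of 39 plasmacytoid list genes. Cells outside the 13 had a median of 1 or 2 of the 18 dendritic genes by plate, and S119 had 7. Cd209a, a DC-SIGN relative of monocyte-derived and some conventional dendritic cells, stood at 18717 FPKM and was detected in no other kept cell. The lectin Mgl2 had 6225 FPKM, Flt3, the receptor for a dendritic cell growth factor, 367.5 FPKM, and Itgax, which encodes CD11c, 539.4 FPKM. The well of its plate listed Cd209a at 0 and Itgax at 91.2 FPKM.

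Library S4, a WT CD8 cell, was the 1 cell with a plasmacytoid set of genes. It had 4052 FPKM of Siglech, 782.5 of Ccr9, 531.0 of Ly6d and 235.9 of Spib, without Cox6a2. Of 39 further genes on a plasmacytoid list, 31 were detected, where cells outside the 13 had a median of 5 to 8 by plate. Among them were Irf8 (3506 FPKM) and Tcf4 (485.4 FPKM), regulators of these cells, Bst2 (3125 FPKM), a surface antigen of theirs, and Pld4 (2711 FPKM), an endolysosomal nuclease. Smim5, a small membrane protein, had 1546 FPKM here and was detected in 1 cell outside the 13. Irf8, Tcf4, Bst2 and Pld4 were not confined to S4. Pld4 had 3285.1 FPKM in library S325 and 2059.7 in S119, and Tcf4 had 270.96 in S256. By plate, Bst2 was detected in 38.4% to 41.8% of kept cells and Irf8 in 16.5% to 44.4%. Among the list genes at 0 in S4 were Ptprs, Il3ra, Ptcra, Tcf3, Gm14548 and Id2. The cell had 2920 FPKM of class II RNA and 362.4 FPKM of Cd4, no Cd8a, and only Cd3d among the CD3 chains, at 3.49 FPKM. Its Cd79b, a B cell receptor component, was 422.6 FPKM, but of 12 B cell genes it was the only 1 detected. Cox6a2 was found in another WT CD8 cell, library S70, at 42.9 FPKM (an estimated 14.4 reads) beside all 4 class II genes and 3549 FPKM of CD3 chains.

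Most of the remaining cells combined class II RNA with the genes of T cells. Libraries S189 and S149 (both KO-labelled CD4) had 4284 and 2365 FPKM of class II RNA, 2550 and 3241 FPKM of Lyz2, and 1501 and 347.9 FPKM of CD3 chains. Library S149 had 16 of the 23 macrophage genes and library S189 had 5. Library S217 (KO-labelled CD8) had 1551 FPKM of class II RNA, 404.8 of Lyz2 and 1331 of CD3 chains. The last 5, libraries S70, S21, S38 and S22 (WT CD8) and S359 (WT CD4), lay between 283.9 and 1011 FPKM of class II RNA with all 3 CD3 chains and 9 to 12 of 12 T cell genes. Across the 13 cells, 9 had a CD3 chain above FPKM 10 and 4 (libraries S325, S119, S256 and S4) had none. Those 4 were among 17 kept cells with no CD3 chain above FPKM 10.

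**Figure D4:**
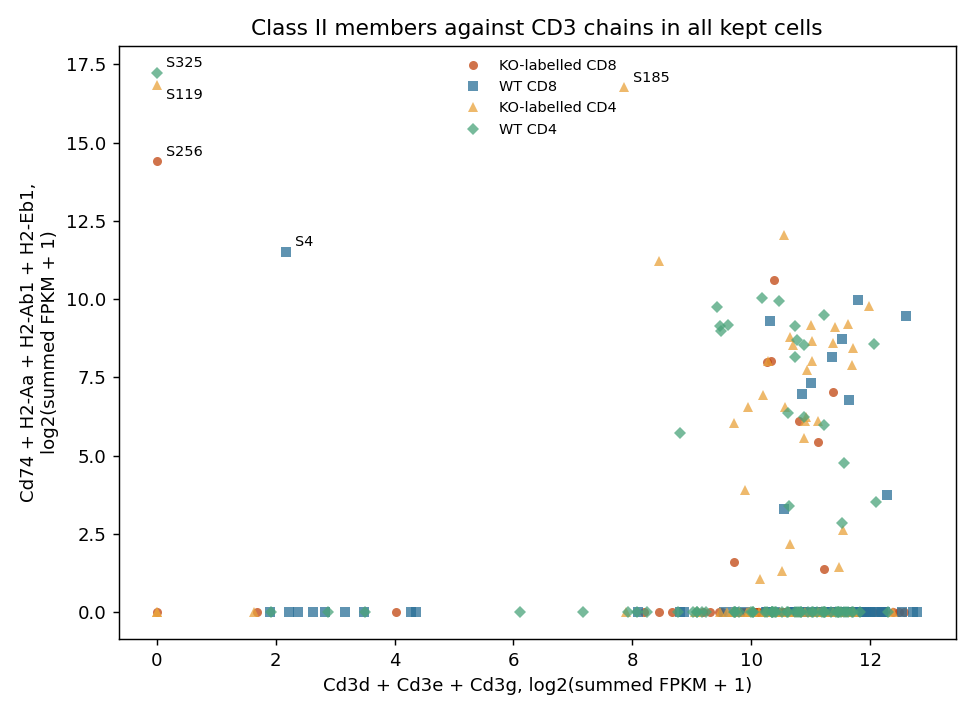
Summed class II level against summed CD3 level in each kept cell, both as log2(summed FPKM + 1), coloured by plate, with 5 library numbers printed. Libraries S325, S119, S256 and S4 lay at the left with little or no CD3 signal, S185 and S149 had CD3 sums of 231.4 and 347.9 FPKM, and the other cells with class II signal lay further right among the CD3-rich cells.

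Lyz2 was mostly found in cells that also had class II RNA. Of 13 cells with Lyz2, 11 had at least 1 class II gene and 11 had at least 1 CD3 chain. Its level in them ranged between 2.17 and 53363 FPKM. Lyz1 was detected in 12 of the 13 at 8.36% to 26.3% of the Lyz2 level (median 12.5%). How reads were divided between the copies was not tested.

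Cd74 was also found alone, and in CD4 cells this went with Foxp3, the master transcription factor of regulatory T cells. Foxp3 was looked at after the Cd74 values had been seen. Of 20 KO-labelled CD4 cells with Cd74 and no class II chain, 19 had Foxp3 (95%, 75.1 to 99.9), against 20 of 42 with neither Cd74 nor a chain (47.6%, 32.004 to 63.6). Of 15 such WT CD4 cells, 14 had Foxp3 (93.3%, 68.1 to 99.8), against 11 of 58 with neither (18.97%, 9.87 to 31.4). The intervals of the Cd74-alone cells and of the cells with neither did not overlap on either plate, but they cover counting error within 1 plate only. How many other genes part the same sets of cells was not tested. Cells with both Cd74 and a class II chain had Foxp3 in 2 of 6 cases on the KO-labelled plate and 1 of 4 on the WT plate. The Cd74-alone cells had Cd74 at a median of 107.3 FPKM (KO-labelled CD4) and 283.3 FPKM (WT CD4). They also had more genes detected, with medians of 2427 and 2497 for KO-labelled and WT CD4, against 2012 and 1880 in the cells with neither, and the part of depth in the difference was not tested. On the CD8 plates Cd74 stood alone in 2 KO-labelled and 2 WT cells, none of them with Foxp3.

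**Figure D5:**
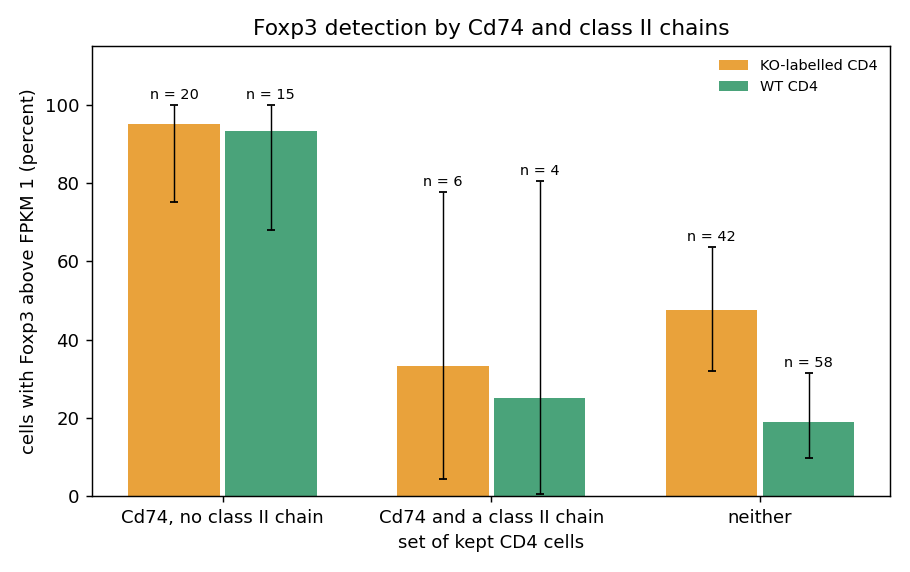
Share of CD4 cells with Foxp3 above FPKM 1 (vertical axis, percent) in 3 sets of cells, for the KO-labelled and WT plates, with exact Clopper-Pearson 95% intervals and the number of cells above each bar. The Cd74-alone cells stood at 95% and 93.3%, and the cells with neither at 47.6% and 18.97%.

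Other genes of the plasmacytoid list were more often higher than lower in the KO-labelled wells. Of 38 detected in either CD8 well, 14 were at least 2-fold higher and 4 lower in the KO-labelled well, where 18.6% and 16.8% of all genes were. Of 38 in the CD4 wells 30 were higher and 1 lower, where 19.9% and 16.4% of all genes were. The median log2 differences were 0.70 and 2.25. Smim5 had 25.5 FPKM in the KO-labelled CD8 well against 0 in the WT CD8 well, and 63.4 in the KO-labelled CD4 well against 0 in the WT CD4 well. Blnk, a B cell and plasmacytoid adaptor, had 10.02 FPKM in the KO-labelled CD8 well against 0 in the WT CD8 well, and 4.90 in the KO-labelled CD4 well against 0 in the WT CD4 well. The regulators Irf8 and Tcf4 did not share this pattern in the CD8 wells. Irf8, which activated T cells also express, had 313.2 FPKM in the KO-labelled CD8 well against 612.5 in the WT CD8 well, and 258.2 in the KO-labelled CD4 well against 78.1 in the WT CD4 well. Tcf4 had 2.88 FPKM in the KO-labelled CD8 well against 2.84 in the WT CD8 well, and 17.8 in the KO-labelled CD4 well against 0.87 in the WT CD4 well.

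Macrophage and monocyte genes were more often lower in the KO-labelled CD8 well, and more often higher in the KO-labelled CD4 well. Of 22 detected in either CD8 well, 3 were at least 2-fold higher, 11 lower and the rest neither (median log2 difference -0.99), where 18.6% and 16.8% of all genes were higher and lower. Of 19 in the CD4 wells 15 were higher and 0 lower (median 3.31), where 19.9% and 16.4% of all genes were. Their summed level was 7783 FPKM in the KO-labelled CD8 well against 10846 in the WT CD8 well, and 7140 in the KO-labelled CD4 well against 1731 in the WT CD4 well. In 3 of the wells about 80% of that sum (79.7% to 81.8%), and 47.99% in the KO-labelled CD4 well, came from Ly6c2, Ctsd and Cst3, which many single cells of these plates also had: Ctsd, for one, was seen in 85% of the cells of the KO-labelled CD8 plate and 84.7% of those of the WT CD8 plate. Without these 3 the sums were 1426 FPKM in the KO-labelled CD8 well against 1974 in the WT CD8 well, and 3714 in the KO-labelled CD4 well against 351.2 in the WT CD4 well. Tyrobp, a signalling adaptor of myeloid and natural killer cells, had 839.1 FPKM in the KO-labelled CD4 well against 4.48 in the WT CD4 well. Csf1r had 45.3 FPKM in the KO-labelled CD8 well against 35.7 in the WT CD8 well, and 149.1 in the KO-labelled CD4 well against 10.2 in the WT CD4 well. The complement gene C1qa was above 0 only in the WT CD8 well, at 27.7 FPKM.

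Genes of the class II pathway were mixed in the CD8 wells, and more of them were higher than lower in the KO-labelled CD4 well. Ciita had 33.8 FPKM in the KO-labelled CD8 well against 24.6 in the WT CD8 well, and 38.9 in the KO-labelled CD4 well against 2.91 in the WT CD4 well. H2-DMa, a chain of the peptide exchanger, had 126.5 FPKM in the KO-labelled CD8 well against 229.5 in the WT CD8 well, and 245.5 in the KO-labelled CD4 well against 84.2 in the WT CD4 well. Its partner H2-DMb1 was also lower in the KO-labelled CD8 well (70.7 FPKM) than in the WT CD8 well, and had 241.04 FPKM in the KO-labelled CD4 well against 0.99 in the WT CD4 well. Nfyc, an NF-Y subunit made in most cells, had 151.8 FPKM in the KO-labelled CD8 well against 158.7 in the WT CD8 well, and 146.8 in the KO-labelled CD4 well against 187.2 in the WT CD4 well. Not every general factor was as even, since Nfya had 1.12 FPKM in the KO-labelled CD4 well against 10.03 in the WT CD4 well, and Rfxap had 10.5 against 1.17 in the same wells. Of 23 pathway genes in the CD8 wells, 3 were at least 2-fold higher and 3 lower in the KO-labelled well, where 18.6% and 16.8% of all genes were. Of 22 in the CD4 wells 12 were higher and 2 lower, where 19.9% and 16.4% of all genes were. Among single cells Ciita was detected in 5 kept cells, including libraries S325, S119, S185 and S256, and library S4 had none.

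The counts of the remaining marker lists are to be read against the same shares of all genes (CD8 wells 18.6% higher and 16.8% lower, CD4 wells 19.9% and 16.4%). Of conventional dendritic cell genes, 7 of 17 were higher and 7 lower in the KO-labelled CD8 well, and 8 of 14 higher and 3 lower in the KO-labelled CD4 well. Of natural killer genes, 5 of 8 were higher and 2 lower in the KO-labelled CD8 well, and 5 of 5 were higher in the KO-labelled CD4 well. Of 6 and 7 melanoma genes detected in the CD8 and CD4 wells, 5 were lower in the KO-labelled well of each lineage and 0 were higher. Neutrophil genes were 1 higher and 1 lower of 5 in CD8 and 2 higher of 4 in CD4, and B cell genes 1 higher and 1 lower of 3 in CD8 and of 2 in CD4. All 12 T cell genes were detected in every well, with 1 of 12 higher in the KO-labelled CD8 well and 1 of 12 lower in the KO-labelled CD4 well. The part of these cell types, and of the differing depths of the wells, in the members' levels was not tested.

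The wells were also set against the single cell that had the most of each gene. Lyz2 and the class II genes stood at 1.36% to 2.30% of library S325 in the KO-labelled CD8 well, at 3.10% to 7.12% in the WT CD8 well, at 3.56% to 5.55% in the KO-labelled CD4 well and at 0.0232% to 0.443% in the WT CD4 well. Against library S4, Siglech in the wells stood at 1.47% (KO-labelled CD8) and 7.56% (KO-labelled CD4), Ccr9 at 4.75% and 11.8%, Ly6d at 5.73% and 6.73% and Spib at 20.7% and 14.8%, in the same order. Cox6a2, whose highest cell was S70 at 42.9 FPKM, stood at 42.5% of that cell in the KO-labelled CD8 well and exceeded it in the KO-labelled CD4 well, at 174.6%. In both KO-labelled wells the 5 myeloid and class II genes kept closer to each other than the 4 plasmacytoid genes of S4 did. A single cell is 1 draw from its type, so these portions are no estimate of a number of cells.

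The genes whose levels ran most like the members across all kept cells rested on the same few cells. The 8 most like the mean of the plasmacytoid genes, among 12529 genes detected in at least 3 cells, were Gm13498, Timd2, Rnd3, Tbc1d8, Tmem221, Stox2, Slc41a2 and Flt3, with Pearson correlations of 0.83 to 0.68. Each was detected in 3 or 4 cells and was highest in library S4. The 8 most like the class II mean were Alox5ap, Csf2rb, Plbd1, Lilrb3, H2-DMb1, Clec10a, Nfam1 and Btk, at 0.78 to 0.74, detected in 5 to 9 cells, at least 5 of them among the 13. Alox5ap serves leukotriene synthesis in myeloid cells, Csf2rb is the shared receptor chain for interleukin-3 and GM-CSF, and Btk is a kinase of B and myeloid cells. These correlations describe sparse values that share libraries and depth. In the wells Alox5ap had 115.98 FPKM in KO-labelled CD8 against 199.8 in WT CD8, and 185.4 in KO-labelled CD4 against 0 in WT CD4. This order of the 4 wells, which the class II chains and the invariant chain also had, was found in 3 of the 8 genes (Alox5ap, Plbd1 and Nfam1).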

How the data were processed

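Smart-seq2 libraries of 94 single cells and 1 population well on each of 4 plates were analysed. The deposited values are FPKM per gene, scaled between libraries by TMM factors by the authors, per the labels' description. Bowtie, RSEM and the build mm10 are listed in the submitters' processing notes, with no roles or versions. Doublet handling and the number of cells in a well are not given in the sources used here. The members, marker lists and alternatives were chosen with earlier results of these data known, and Foxp3 was added after seeing Cd74.

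Every column matched a label, 0 pairs of libraries were identical, and 0 columns belonged to other samples. Cells were kept with at least 1000 genes above FPKM 1. Detection was above FPKM 1. Differences are of log2(FPKM + 1), a pseudocount of 1 that understates changes of low genes. Cell means were taken over FPKM for well against cells, and over log2 values between labels, apart from the class II sums. Shares carry exact Clopper-Pearson 95% intervals, and for a share of 0 the upper end of that interval is given. A 2-fold difference (log2 of 1 or more) counted as higher or lower. No test was run, because each group is 1 plate.

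Depth was estimated per library from the FPKM value of 1 read, the commonest low value of FPKM times length over 3333 genes with a single transcript longer than 800 bases in GENCODE M21. On simulated libraries, estimates came to 0.9997 times the true depth in the median for cells (86% within 10%) and to 1 times for wells (97.5% within 10%). The simulation used the same transcript lengths as the estimate and no TMM scaling, so it could not test either. As the deposited values are TMM-scaled, an estimate need not equal the reads sequenced. Ratios against a well at the floor used 3 estimated reads per well. Reads of a member were estimated with the median length of its protein-coding transcripts, which need not be the length behind its FPKM. Genes that are no members are named when they belong to a marker list and are above FPKM 1 in 1 of the 13 cells, or rank among the 8 most like the members, with Il27ra, Cd4, Cd8a and CD3 chains as checks. Python 3.11.15, numpy 2.4.6, pandas 2.3.3 and scipy 1.17.1 were used.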

Additional observations from a re-analysis of the deposited data

Results flagged for a closer look

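The 5 genes Lyz2, Cd74, H2-Aa, H2-Ab1 and H2-Eb1 differed in opposite directions between KO-labelled and WT wells in the 2 lineages. The log2 difference, KO-labelled minus WT, was -1.19 in CD8 and 6.75 in CD4 for Lyz2, -1.03 and 3.03 for Cd74, and -1.38 and 7.38 for H2-Aa. It was -1.77 in CD8 and 5.96 in CD4 for H2-Ab1, and -1.33 and 5.69 for H2-Eb1. Each value compares 1 well with 1 well, and the difference between lineages was not tested.

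The 72 cells left out by the filter on detected genes still held some of the members. At least 1 member was above FPKM 1 in 11 of them, namely Siglech in 4, Spib in 3, Cd74 in 2 and H2-Aa in 2 cells. By plate, Siglech was in 2 KO-labelled CD8 cells, 1 WT CD8 cell and 1 KO-labelled CD4 cell, at 1.19 to 1.64 FPKM. None of these cells had 2 or more members.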

How the results depend on the processing

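The number of members detected in each well and the 13 class II cells changed little under the alternatives, whereas the medians moved with the pseudocount and with the few cells that carried the genes. Well minus cells, without the 13 cells, the median was 5.94 (KO-labelled CD8), 4.82 (WT CD8), 6.70 (KO-labelled CD4) and 0 (WT CD4). Leaving out only the cell with the most class II RNA on each plate, also chosen after seeing the data, gave 5.73 for KO-labelled CD8, 4.22 for WT CD8 and 0 for WT CD4. With only cells that had a CD3 chain above FPKM 10, a choice made after seeing the data that left out 17 cells, it was 5.72 for KO-labelled CD8, 4.16 for WT CD8 and 0 for WT CD4. The plasmacytoid cell was then lost (0 cells), and 9 class II cells remained. Pseudocounts of 0.1 and 10 gave 5.85 and 2.76 for KO-labelled CD8 and 4.96 and 2.06 for KO-labelled CD4. Between wells, KO-labelled minus WT, a pseudocount of 10 gave 0.24 in CD8, and pseudocounts of 0.1 and 10 gave 7.97 and 4.17 in CD4. Of 160 shares under other filters and thresholds, all but 14 stayed within their interval, the exceptions being mostly those of Spib and Ccr9 with detection above FPKM 0 or 10. With at least 2000 genes per cell, Cd74 was detected in 41.5% of WT CD4 cells.

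No paired analysis was possible because each group is 1 plate, and its library numbers name wells and pair no samples. With 1 well per plate, the spread between wells of a group is unknown, and ratios near the 3-read floor are limited by depth.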
